A study of Mus musculus with 9 samples.

Results

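The genes described here encode proteins that carry long-chain fatty acids into liver cells and activate them. They were chosen by name as a set of 10 genes: the fatty acid transport proteins Slc27a2, Slc27a4 and Slc27a5, the fatty acid binding proteins Fabp1 and Fabp5, the long-chain acyl-CoA synthetases Acsl1, Acsl3, Acsl4 and Acsl5, and lipoprotein lipase, Lpl. The level of a gene was the mean log2 signal of the probe sets annotated with that symbol alone. By this rule 8 of the 10 genes were measured, among 19938 genes in all. Acsl1 had no probe set listed with its symbol, Acsl3 had only 1 probe set that it shares with another symbol, and neither is given a value. Fabp5 had 2 probe sets and the other 7 genes had 1 each.

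Whole liver RNA of 9 mice was read on as many Affymetrix Mouse Gene 1.0 ST arrays, 3 for each group. OB-TUDCA mice were male ob/ob mice (B6.V-Lepob/J), which lack functional leptin, gavaged with 500 mg/kg of tauroursodeoxycholic acid, TUDCA, 2 times a day for 3 weeks. OB-control mice were ob/ob males that received tap water, and N-control mice were C57BL/6J littermates that received tap water. All mice were bought at 6 weeks of age, ate normal chow and were fasted for 8 h before the liver was taken. TUDCA is a taurine-conjugated bile acid, and leptin loss was present in both OB groups, so no comparison here isolates TUDCA in a lean animal. The arrays are labelled as biological replicates, and the sample is whole liver, so that fewer cells of a type and less RNA per cell cannot be told apart.

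Fatty acids reach the liver from albumin and from lipoproteins, and fatty acid transport proteins at the cell surface or the endoplasmic reticulum carry them and also activate very long chains. Fatty acid binding proteins keep them in solution in the cytosol, and acyl-CoA synthetases trap them by joining them to coenzyme A, the form in which they are oxidized or esterified. Lipoprotein lipase frees fatty acids from circulating triglyceride and is expressed mainly in fat and muscle in the adult. Mice that lack leptin overeat and store triglyceride in the liver.

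Hepatocyte genes had high signal on every array, and N-control replicate 2 also had high signal of pancreatic acinar genes. The mean log2 signal of 9 hepatocyte genes lay between 12.58 and 12.60 on OB-TUDCA arrays, between 12.43 and 12.58 on OB-control arrays and between 12.65 and 12.68 on N-control arrays. The mean of 20 measured pancreatic acinar genes was 10.03 on N-control replicate 2, against 3.87 to 4.27 on the other 8 arrays, so N-control replicate 2 stood apart from the rest in digestive enzyme genes.

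Of the 8 genes, 0 passed an adjusted p of 0.05 in limma in any of the 3 comparisons. For OB-TUDCA against OB-control mice, 0.301% of all 19938 genes passed it; 0 of the 8 genes had an unadjusted p under 0.05, against 12% of all genes, and for 0 of the 8 did the arrays of the groups not overlap, against 13.8%. The median difference of the 8 genes was -0.03 on the log2 scale and that of all genes 0.01, and OB-TUDCA had the lower mean for 5 of 8, against 46.3% of all genes. For OB-control against N-control mice, 0.948% of all genes passed; 1 of the 8, Slc27a4, had an unadjusted p under 0.05, against 12.1%, and did not overlap, against 15.3%. The median difference was -0.12, with 0.02 over all genes, and OB-control had the lower mean for 6 of 8, against 43% of all genes. For OB-TUDCA against N-control mice, 3.24% of all genes passed; Slc27a4 was again the gene of the 8 with an unadjusted p under 0.05, against 18.5%, and without overlap, against 20.7%. The median difference was -0.15, with 0.04 over all genes, and OB-TUDCA had the lower mean for 7 of 8, against 40.4%. Any 2 of the comparisons share the arrays of a group, so none of them is independent of the others. N-control had the highest group mean for 6 of the 8 genes, OB-control for 2 and OB-TUDCA for none. This order was not counted over all genes, so it is not read as a trait of the set.

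**Figure D1:**
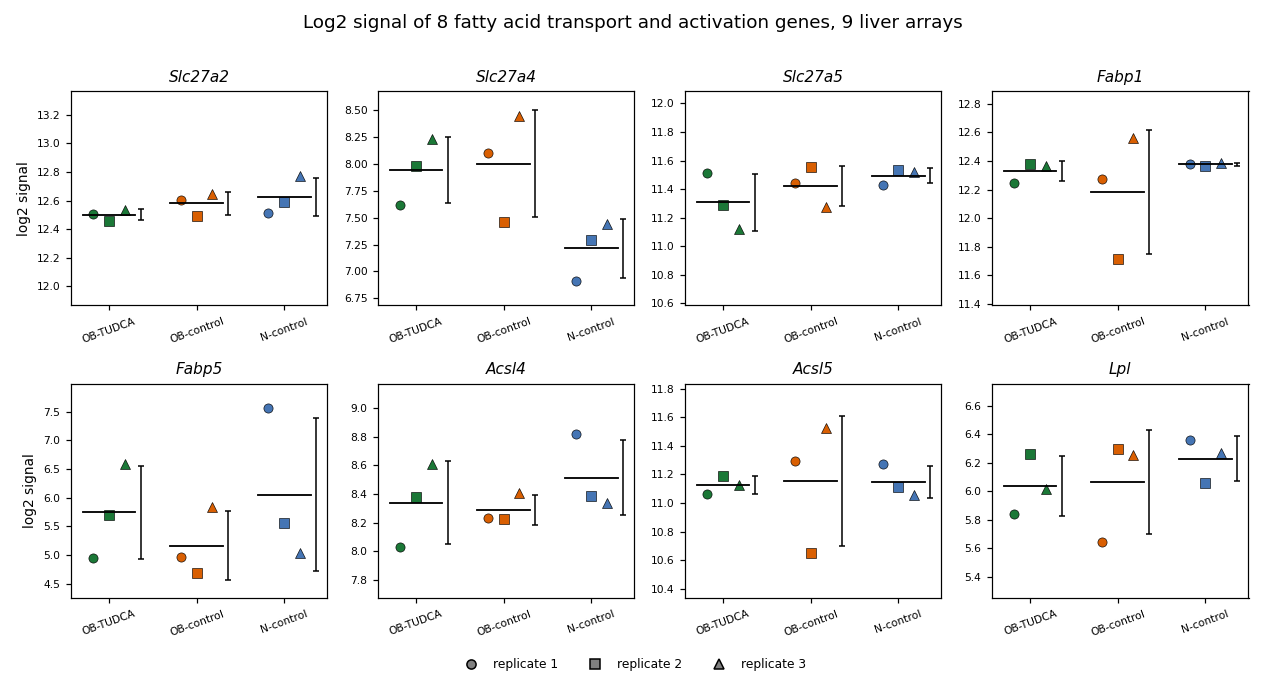
Log2 signal (vertical axis, its range differing by gene) of the 8 measured genes on each array, by group (horizontal axis); marker shapes give the replicate, lines the group means and bars 1 SD (n = 3 arrays). Slc27a4 is the gene whose OB-TUDCA and OB-control arrays all lie above its N-control arrays, and Fabp5 has the widest spread, with N-control replicate 1 at 7.56.

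Slc27a4 had higher signals in both OB groups than in N-control mice, by differences that missed the adjusted threshold. Both comparisons use the same 3 N-control arrays. Having 1 such gene in 8 is near or below the shares of all genes. Without overlap these were 15.3% for OB-control and 20.7% for OB-TUDCA against N-control mice. At an unadjusted p under 0.05 in limma they were 12.1% and 18.5%. The count is therefore not read as a trait of the set. Slc27a4 encodes FATP4, a transport protein with acyl-CoA synthetase activity that is known best from the intestine and skin. Its signal was 7.62, 7.98 and 8.23 on OB-TUDCA arrays, against 8.10, 7.46 and 8.45 on OB-control arrays and 6.91, 7.29 and 7.44 on N-control arrays. All 6 arrays of ob/ob mice were above all 3 of N-control mice, by a margin of 0.02 between OB-control replicate 2 and N-control replicate 3, while the 2 OB groups overlapped. OB-control mice averaged 8.00 ± 0.50 and N-control mice 7.21 ± 0.27 (SD, n = 3 each), a difference of 0.79 on the log2 scale (standard error 0.25, 95% interval 0.22 to 1.35) or 1.73-fold. The unadjusted p from limma was 0.0115 and the adjusted p 0.224. OB-TUDCA mice averaged 7.95 ± 0.31 (SD, n = 3), 0.73 above N-control mice (standard error 0.25, adjusted p 0.163 in limma) and 0.06 below OB-control mice (difference -0.06, 95% interval -0.62 to 0.51, adjusted p 0.954 in limma). The lowest adjusted p of any member under any alternative was 0.0619 in limma, for Slc27a4 in OB-control against N-control mice without OB-control replicate 2, where the difference was 1.06. Without N-control replicate 2, the array with the digestive enzyme signal, the Slc27a4 difference from N-control was 0.77 in OB-TUDCA mice (adjusted p 0.253 in limma) and 0.82 in OB-control mice (adjusted p 0.364 in limma).

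Adipocyte markers were read on the same arrays. The mean log2 signal of 8 measured adipocyte markers was 5.11 to 5.49 on OB-TUDCA arrays and 5.17 to 5.53 on OB-control arrays, against 4.96 to 5.08 on N-control arrays. In OB-control against N-control mice 6 of these 8 had the higher mean in OB-control, against 56.9% of all genes. The 6 include Lep and Slc7a10, with differences of 0.004 and 0.04. No adipocyte marker passed the threshold in limma in any comparison. Cidea, a lipid droplet protein that fatty livers can also express, measured 3.99, 7.07 and 5.63 on OB-TUDCA arrays, 5.89, 4.37 and 8.25 on OB-control arrays and 3.69, 4.03 and 3.98 on N-control arrays. Its difference for OB-control against N-control was 2.27 (standard error 0.95), while the median difference of the 8 markers was 0.06. The difference in the mean of the 8 markers thus leaned on Cidea. The level of that mean was raised by Pck1, at 11.97 to 12.36 on OB-TUDCA, 11.71 to 12.24 on OB-control and 11.71 to 12.06 on N-control arrays. This is near the level of the hepatocyte genes, so the mean does not stand for fat cells alone. Lipe, the hormone-sensitive lipase, measured 6.25, 6.60 and 6.81 on OB-TUDCA arrays, 6.72, 6.44 and 6.51 on OB-control arrays and 6.19, 6.31 and 6.34 on N-control arrays. For Cidea and Lipe every OB-control array was above every N-control array, and for Adipoq and Plin1 the arrays overlapped. Adipoq measured 2.52 to 2.78 on the OB arrays, against 2.63 to 2.92 on N-control arrays, and Plin1 measured 3.87 to 4.28 on the OB arrays, against 4.17 to 4.35 on N-control arrays. Slc27a4 and Cidea were both lowest on replicate 2 and highest on replicate 3 within OB-control mice. Replicate 2 was also the lowest there for 6 of the 8 members, and replicate 3 the highest for 6. Within OB-TUDCA mice both genes were lowest on replicate 1, but Slc27a4 was highest on replicate 3 and Cidea on replicate 2. The part of the adipocyte markers in the Slc27a4 result was not tested.

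The promoter of Slc27a4 is shown because it belongs to the only member whose groups did not overlap, and that of Fabp1, the main fatty acid binding protein of hepatocytes, because it holds other motifs. RefSeq promoter windows of build GRCm38.p6 were matched by symbol for 7 of the 10 genes, and the 250 bases before the start site were read, 5′ to 3′ on the strand of the gene. Capitals mark exact matches, on either strand, to AGGTCA (the core letters that nuclear receptors read), the DR1 element (a pair of such cores 1 base apart, the arrangement that PPAR and RXR are known to bind, searched with any base after each AGG), TATAAA (the TATA box), CCAAT (the CCAAT box) and GGGCGG (the GC box). The Slc27a4 window lies at chr2:29802384-29802633 on the plus strand, and the Fabp1 window at chr6:71199629-71199878 on the plus strand.
Slc27a4: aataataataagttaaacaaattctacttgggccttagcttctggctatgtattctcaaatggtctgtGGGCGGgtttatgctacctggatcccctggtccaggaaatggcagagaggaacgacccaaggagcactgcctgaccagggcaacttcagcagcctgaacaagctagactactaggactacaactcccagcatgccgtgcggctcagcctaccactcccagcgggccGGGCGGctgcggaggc
Fabp1: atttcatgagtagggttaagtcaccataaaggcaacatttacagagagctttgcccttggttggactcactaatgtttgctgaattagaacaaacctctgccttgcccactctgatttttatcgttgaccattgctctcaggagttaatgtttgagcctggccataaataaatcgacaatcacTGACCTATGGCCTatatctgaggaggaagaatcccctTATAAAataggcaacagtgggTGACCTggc
The Slc27a4 window held GGGCGG 2 times, starting 182 and 16 bases before the start site, and none of the other 4 motifs; GGGCGG occurred in 32.7% of the 32851 windows of this length. The Fabp1 window held TATAAA 30 bases before the start site and 2 AGGTCA matches on the minus strand. One of these overlapped a match to the DR1 element, which 0.338% of all windows held, while TATAAA was in 12.4% and AGGTCA in 14%. These letters describe the windows, and no binding was measured.

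Slc27a2 and Slc27a5, the transport proteins that liver is known to make in quantity, did not separate the groups. Slc27a2 encodes FATP2, a very long chain acyl-CoA synthetase, and measured 12.51, 12.46 and 12.53 on OB-TUDCA arrays, 12.61, 12.49 and 12.65 on OB-control arrays and 12.51, 12.59 and 12.77 on N-control arrays. Its 9 arrays spanned 0.31 on the log2 scale, and 18.5% of all genes had a smaller span. The difference was -0.08 between OB-TUDCA and OB-control mice (95% interval -0.28 to 0.11) and -0.04 when OB-control was set against N-control mice (95% interval -0.24 to 0.15), so that both intervals included 0. Slc27a5 encodes FATP5, which in liver also activates bile acids, joining them to coenzyme A before they are conjugated. It measured 11.51, 11.29 and 11.12 on OB-TUDCA arrays, 11.45, 11.55 and 11.27 on OB-control arrays and 11.43, 11.54 and 11.52 on N-control arrays. In mice given the bile acid TUDCA the difference of Slc27a5 was -0.12 against OB-control mice (standard error 0.11, adjusted p 0.739 in limma) and -0.19 against N-control mice (standard error 0.11, adjusted p 0.423 in limma). The difference against OB-control mice was -0.02 without OB-TUDCA replicate 3 and -0.22 without OB-TUDCA replicate 1. The 9 arrays of Slc27a5 spanned 0.44, and 40.4% of all genes had a smaller span. The lowest array of Slc27a5 was OB-TUDCA replicate 3 and the highest OB-control replicate 2, and the groups overlapped.

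Fabp1 encodes the liver fatty acid binding protein, and its group means differed by less than the spread of the OB-control arrays. It measured 12.25, 12.38 and 12.36 on OB-TUDCA arrays, 12.28, 11.71 and 12.56 on OB-control arrays and 12.38, 12.37 and 12.38 on N-control arrays. The N-control arrays of Fabp1 had an SD of 0.0083, the OB-TUDCA arrays of 0.07 and the OB-control arrays of 0.43 (n = 3 each), and both the highest and the lowest Fabp1 signal of the 9 arrays came from OB-control mice. OB-TUDCA differed from OB-control by 0.14 (95% interval -0.25 to 0.54), and OB-control from N-control by -0.19 (95% interval -0.59 to 0.21, adjusted p 0.731 in limma). Without OB-control replicate 2 both of these differences turned, to -0.09 for OB-TUDCA against OB-control and 0.05 for OB-control against N-control.

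Fabp5, the epidermal fatty acid binding protein, which macrophages and fat cells are known to make, had the widest spread of the 8 genes. Its signal was 4.96, 5.70 and 6.58 on OB-TUDCA arrays, 4.97, 4.69 and 5.84 on OB-control arrays and 7.56, 5.57 and 5.04 on N-control arrays. The groups overlapped, and the 9 arrays spanned 2.87 on the log2 scale, a wider span than that of 99.5% of all genes. OB-TUDCA mice averaged 0.58 more than OB-control mice (95% interval -0.84 to 2.01, adjusted p 0.773 in limma), and OB-control mice averaged 5.17 ± 0.60 and N-control mice 6.05 ± 1.33 (SD, n = 3 each), a difference of -0.89 (standard error 0.63, adjusted p 0.636 in limma). The first of these differences was 0.16 without OB-TUDCA replicate 3 and 0.34 without OB-control replicate 2, and it was 0.92 without OB-control replicate 3 and 0.97 without OB-TUDCA replicate 1. The difference of OB-control against N-control was -0.14 without N-control replicate 1. The difference of OB-TUDCA against N-control, -0.31 with all arrays, was 0.44 without N-control replicate 1 and 0.08 without OB-TUDCA replicate 1. For Fabp5 the 13 measured Kupffer cell and macrophage markers are given beside it: their mean log2 signal was 6.76 to 7.36 on OB-TUDCA arrays, 6.61 to 6.99 on OB-control arrays and 6.68 to 6.95 on N-control arrays, and their part in the Fabp5 values was not tested.

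The 2 probe sets of Fabp5 gave nearly the same differences. For OB-TUDCA against OB-control these were 0.56 and 0.60, and for OB-control against N-control -0.89 and -0.88. The 2 probe sets share a symbol and may stand for near-identical copies, and whether each reads RNA of the other was not tested.

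No member passed the threshold, so likeness of profile was taken for Fabp5, the gene with the largest difference. Over the 9 arrays, with each gene centred on its mean, the smallest root mean square differences were 0.38 for Sqle, 0.51 for Phlda1 and 0.52 for Cyp51. Sqle and Cyp51 encode enzymes of cholesterol synthesis. Sqle measured 7.56, 8.07 and 8.85 on OB-TUDCA arrays, 8.08, 6.91 and 7.67 on OB-control arrays and 9.43, 8.16 and 7.08 on N-control arrays. Like Fabp5, Sqle was highest on N-control replicate 1 and lowest on OB-control replicate 2. None of these 3 genes passed the threshold in limma in any comparison.

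**Figure D2:**
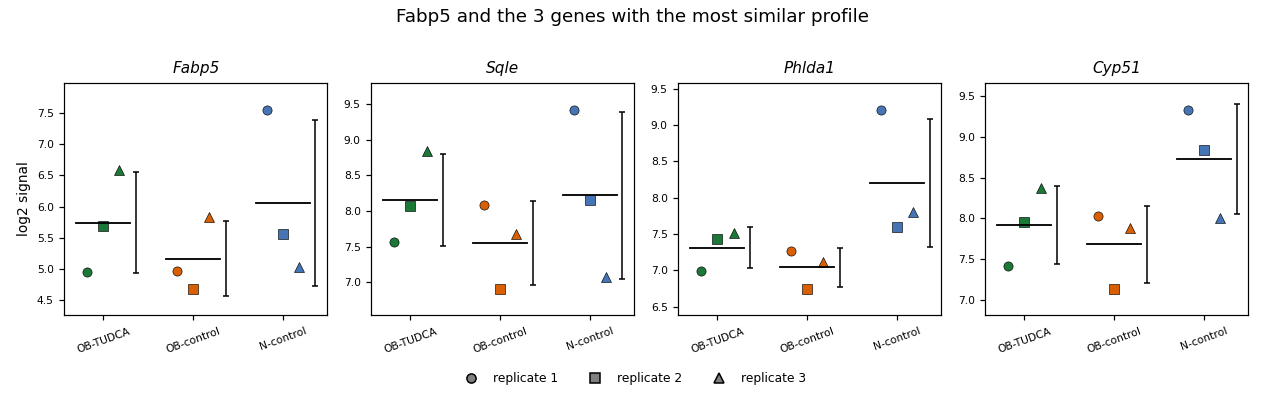
Log2 signal (vertical axis, its range differing by gene) on each array, by group (horizontal axis), of Fabp5 and of the 3 genes whose centred profile over the 9 arrays was nearest to it; marker shapes give the replicate, lines the group means and bars 1 SD (n = 3 arrays). In all 4 panels N-control replicate 1 is the highest array and OB-control replicate 2 the lowest.

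The acyl-CoA synthetases Acsl4 and Acsl5 did not separate the groups. Acsl4 prefers arachidonic acid, and measured 8.03, 8.38 and 8.61 on OB-TUDCA arrays, 8.23, 8.23 and 8.41 on OB-control arrays and 8.82, 8.39 and 8.34 on N-control arrays. N-control replicate 1 was the highest Acsl4 array, and OB-control differed from N-control by -0.23 (95% interval -0.60 to 0.15, adjusted p 0.647 in limma) with all arrays and by -0.07 without N-control replicate 1. OB-TUDCA differed from OB-control by 0.05 (95% interval -0.32 to 0.42). Acsl5, a synthetase of mitochondria and endoplasmic reticulum, measured 11.06, 11.19 and 11.13 on OB-TUDCA arrays, 11.30, 10.65 and 11.52 on OB-control arrays and 11.27, 11.11 and 11.06 on N-control arrays. The 3 group means of Acsl5 were 11.13, 11.16 and 11.15 in that order. As for Fabp1, the highest and the lowest Acsl5 signal of the 9 arrays were OB-control replicates 3 and 2.

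Lpl, the secreted lipase that frees fatty acids from lipoproteins, measured 5.84, 6.26 and 6.02 on OB-TUDCA arrays, 5.65, 6.29 and 6.25 on OB-control arrays and 6.36, 6.06 and 6.27 on N-control arrays. The groups overlapped. The difference was -0.03 for OB-TUDCA against OB-control (95% interval -0.43 to 0.38) and -0.16 for OB-control against N-control (95% interval -0.57 to 0.24, adjusted p 0.782 in limma). Without OB-control replicate 1, the lowest array, the second difference was 0.05.

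The intervals show how large a difference in array signal these arrays leave possible. They cover the spread between arrays only, and how closely signal follows RNA amount was not tested. For OB-TUDCA against OB-control, the 95% interval stayed within 1.5-fold in either direction for 6 of the 8 genes and within 2-fold for 7, Fabp5 being the exception with an upper bound of 4.02-fold. For OB-control against N-control it stayed within 1.5-fold for 4 genes and within 2-fold for 6, the exceptions being Slc27a4 and Fabp5. For OB-TUDCA against N-control the counts were 5 and 6, with the same 2 exceptions.

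**Figure D3:**
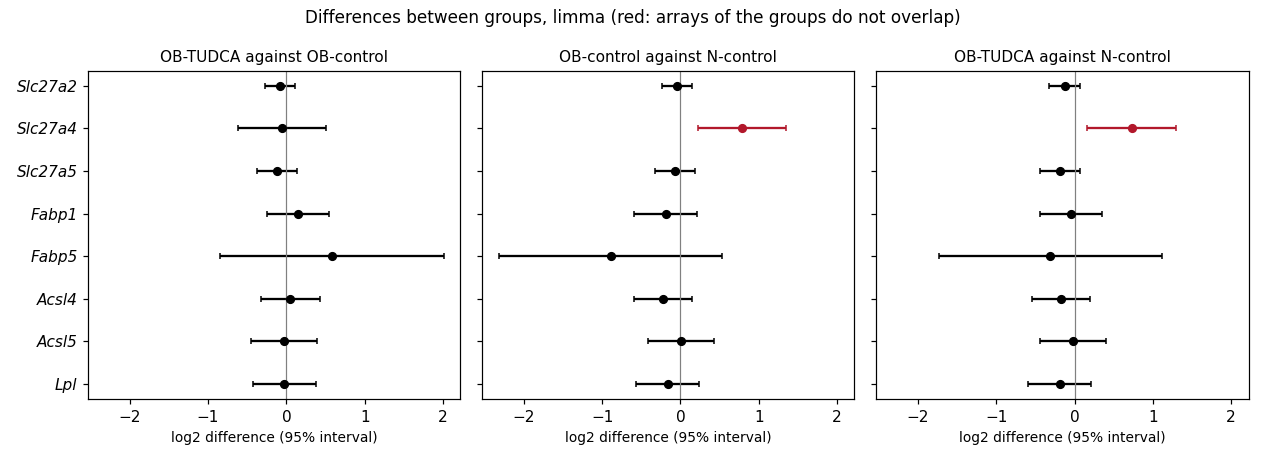
Difference in log2 signal (horizontal axis) of each gene (vertical axis) in the 3 comparisons, with 95% intervals from limma; red marks a gene whose arrays do not overlap between the groups. Slc27a4 is red in both comparisons with N-control mice, at 0.79 and 0.73, and the interval of every other point includes 0.

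The median SD of the 8 genes between arrays of a group was 0.20 within OB-TUDCA, 0.40 within OB-control and 0.14 within N-control, against 0.12, 0.12 and 0.11 over all genes. OB-control replicate 2 was the lowest of its group for 6 of the 8 genes, all but Slc27a5 and Lpl, and OB-control replicate 3 was the highest for 6. The OB-control SD was the largest of the 3 groups for 4 of the 8 genes, Slc27a4, Fabp1, Acsl5 and Lpl, and the smallest for Fabp5 and Acsl4. Over all genes, replicate 2 was the lowest of its group for 35.1% and replicate 3 the highest for 34.3%. Within OB-TUDCA, replicate 1 was the lowest for 6 of the 8 genes, against 34.1% of all genes. These counts are descriptions of single arrays, and the genes are not independent replicates.

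**Figure D4:**
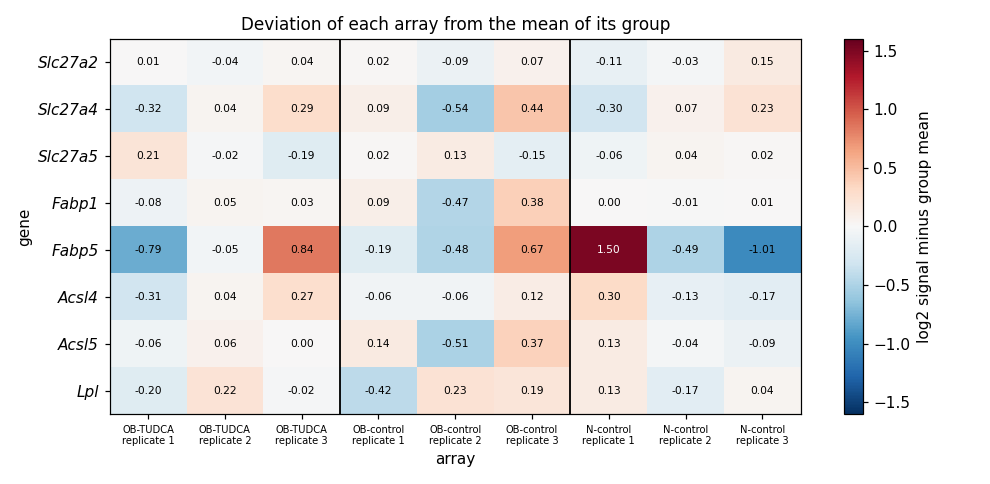
Log2 signal of each gene (rows) on each array (columns) minus the mean of its group; red is above and blue below the mean, and the number is the deviation. OB-control replicate 2 is below and OB-control replicate 3 above their group mean for Slc27a2, Slc27a4, Fabp1, Fabp5, Acsl4 and Acsl5. The largest deviation is that of Fabp5 on N-control replicate 1, which is upward.

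Other genes of the same route were read from 7 lists: further transport proteins, binding proteins and acyl-CoA synthetases, membrane uptake, lipases and their regulators, acyl-CoA binding proteins with thioesterases, and the carnitine shuttle. In OB-TUDCA against OB-control mice none of their measured genes passed the threshold in limma (at an unadjusted p under 0.05, 1 was higher and 8 were lower over the 65 genes of these lists, where 12% of all genes passed in either direction). The lowest adjusted p was that of Acsm5, a medium-chain acyl-CoA synthetase, with a difference of -0.74 (standard error 0.15, adjusted p 0.0752 in limma). Of the same 65 genes 5 passed in OB-control against N-control mice, against 0.948% of all genes, and 8 in OB-TUDCA against N-control mice, against 3.24%. The lists were chosen with earlier results of these data known, so these counts are no test of the lists.

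Of 7 measured genes of membrane uptake, 2 passed the threshold against N-control mice in both OB groups, Cd36 and Vldlr. Cd36, the fatty acid translocase, measured 10.87, 11.09 and 11.06 on OB-TUDCA arrays, 10.92, 10.82 and 11.17 on OB-control arrays and 8.85, 9.15 and 9.81 on N-control arrays. All OB arrays lay above all N-control arrays, and Cd36 rose by 1.74 in OB-TUDCA mice (standard error 0.21, 3.34-fold, adjusted p 0.00459 in limma) and by 1.70 in OB-control mice (standard error 0.21, 3.25-fold, adjusted p 0.00802 in limma), both against N-control mice. Vldlr, a receptor that takes up triglyceride-rich lipoproteins, measured 7.26, 7.36 and 7.74 on OB-TUDCA arrays, 7.14, 7.45 and 7.20 on OB-control arrays and 6.00, 5.76 and 6.26 on N-control arrays. It rose by 1.45 in OB-TUDCA mice (adjusted p 0.00318 in limma) and by 1.26 in OB-control mice (adjusted p 0.00887 in limma). Cd36 passed in both comparisons, and Vldlr in OB-TUDCA mice, with any single array left out. Vldlr missed the threshold in OB-control mice without N-control replicate 1 (difference 1.25, adjusted p 0.0511 in limma). The other 5 measured genes of this list, among them Got2 and Scarb1, did not pass. Got2 differed by 0.41 in OB-control against N-control mice (adjusted p 0.0570 in limma). In OB-TUDCA against OB-control mice it differed by -0.31 (adjusted p 0.142 in limma), and in neither comparison did its arrays overlap. Scarb1 overlapped in both. No comparison between the OB groups passed for Cd36 (difference 0.04) or Vldlr (difference 0.19).

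Acyl-CoA binding proteins hold activated fatty acids, and thioesterases split them back to free fatty acid. In OB-control against N-control mice, 16 of the 19 genes of this list had a higher mean, against 56.9% of all genes, with a median difference of 0.31 against 0.02 over all genes, and 2 passed the threshold. These were Acot3, a peroxisomal thioesterase, with a rise of 1.61 (standard error 0.29, adjusted p 0.0391 in limma), and Acot4, likewise peroxisomal, with a rise of 1.48 (standard error 0.20, adjusted p 0.0107 in limma). Acot3 measured 7.49, 7.44 and 6.92 on OB-TUDCA arrays, 7.73, 7.46 and 7.17 on OB-control arrays and 5.27, 5.80 and 6.48 on N-control arrays. Acot4 measured 9.39, 9.32 and 9.16 on OB-TUDCA arrays, 9.64, 9.16 and 9.47 on OB-control arrays and 7.51, 7.99 and 8.34 on N-control arrays. For both genes every OB array was above every N-control array. Acot3 and Acot4 belong to a cluster of close copies, Acot1 to Acot6, and probes for one may read another. Acot3 in OB-control mice missed the threshold when any of 8 arrays was left out, all but N-control replicate 3 (adjusted p 0.0535 to 0.172 in limma), and Acot4 missed it without N-control replicate 2 (0.0518) or OB-control replicate 1 (0.0639). In OB-TUDCA against N-control mice Acot3 and Acot4 rose by 1.43 and 1.34 (adjusted p 0.029 and 0.00961 in limma), and Acbd5, a peroxisomal acyl-CoA binding protein, fell by 0.55 (adjusted p 0.0451 in limma). There Acot3 missed the threshold without N-control replicate 1 or 2 or OB-TUDCA replicate 1 or 2 (0.0735 to 0.118), Acot4 without OB-TUDCA replicate 2 (0.0508), and Acbd5 without any of 7 arrays, all but OB-control replicate 2 and OB-TUDCA replicate 1 (0.0672 to 0.155).

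Among other synthetases, Acsm1, a medium-chain enzyme of liver mitochondria, fell by 0.92 in OB-TUDCA mice (limma adjusted p 0.00398) and by 0.63 in OB-control mice (limma adjusted p 0.0331), both against N-control mice with a standard error of 0.11. It measured 9.90, 9.47 and 9.65 on OB-TUDCA arrays, 9.88, 10.05 and 9.93 on OB-control arrays and 10.62, 10.61 and 10.53 on N-control arrays. In OB-control mice Acsm1 missed the threshold when any of 6 arrays was left out, the 3 N-control arrays, OB-control replicates 1 and 3 and OB-TUDCA replicate 3 (adjusted p 0.0556 to 0.147 in limma). In OB-TUDCA mice Acsm1 passed with any single array left out. Acsm5 measured 8.65, 8.20 and 8.29 on OB-TUDCA arrays, 9.03, 9.23 and 9.10 on OB-control arrays and 8.83, 9.24 and 9.20 on N-control arrays, the OB-TUDCA arrays being the 3 lowest. Acsm5 fell by 0.71 in OB-TUDCA against N-control mice (standard error 0.15, adjusted p 0.0323 in limma). Acsm5 lost its call without N-control replicate 2 or 3, OB-control replicate 1 or 3 or OB-TUDCA replicate 2 or 3 (0.0536 to 0.125). The remaining 12 synthetases did not pass in any comparison.

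Of the other fatty acid binding proteins, Fabp4, known from fat cells and macrophages, measured 6.32, 7.08 and 7.65 on OB-TUDCA arrays, 6.09, 6.12 and 6.64 on OB-control arrays and 5.46, 5.49 and 5.70 on N-control arrays. It rose by 1.47 in OB-TUDCA against N-control mice (standard error 0.29, adjusted p 0.0277 in limma), and lost the call without any N-control array, OB-control replicate 1 or OB-TUDCA replicate 2 or 3 (0.0537 to 0.115). OB-control exceeded N-control by 0.74 (adjusted p 0.344 in limma) with arrays that did not overlap, and the adipocyte and macrophage marker values given above stand beside this gene too. The mean log2 signal of 10 endothelial cell markers was 7.17 to 7.36 on OB-TUDCA arrays, 7.12 to 7.39 on OB-control arrays and 7.37 to 7.50 on N-control arrays. Of these 10 markers 5 passed the threshold in OB-TUDCA against N-control mice, against 3.24% of all genes, Lyve1 higher by 2.44 and Kdr, Oit3, Fcgr2b and Dnase1l3 lower. The list went both ways. For 3 markers every OB-TUDCA array was above every N-control array, and for 5 every one was below. The 3 were Lyve1, Pecam1 (7.30 to 7.35, against 6.86 to 7.10) and Cdh5 (7.15 to 7.80, against 6.92 to 7.07). The mean of 10 stellate cell markers was 7.24 to 7.48 on OB-TUDCA arrays, 7.12 to 7.24 on OB-control arrays and 7.13 to 7.20 on N-control arrays, and none passed the threshold in limma. The part of these cell types in the Fabp4 result was not tested. The other 7 binding proteins, the 3 further transport proteins Slc27a1, Slc27a3 and Slc27a6, the 9 measured lipases and regulators of Lpl and the 5 measured genes of the carnitine shuttle had no call in limma. At an unadjusted p under 0.05, 1 carnitine shuttle gene was higher in OB-control against N-control mice, Slc25a20, which carries acylcarnitines into mitochondria, with a difference of 0.69 (standard error 0.28, adjusted p 0.364 in limma), against 12.1% of all genes at that level in either direction. In OB-TUDCA against N-control mice 2 of the 5 were, Slc25a20 with 0.66 (adjusted p 0.256 in limma) and Slc22a5, a carnitine transporter, with 0.64 (adjusted p 0.233 in limma), against 18.5% of all genes.

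**Figure D5:**
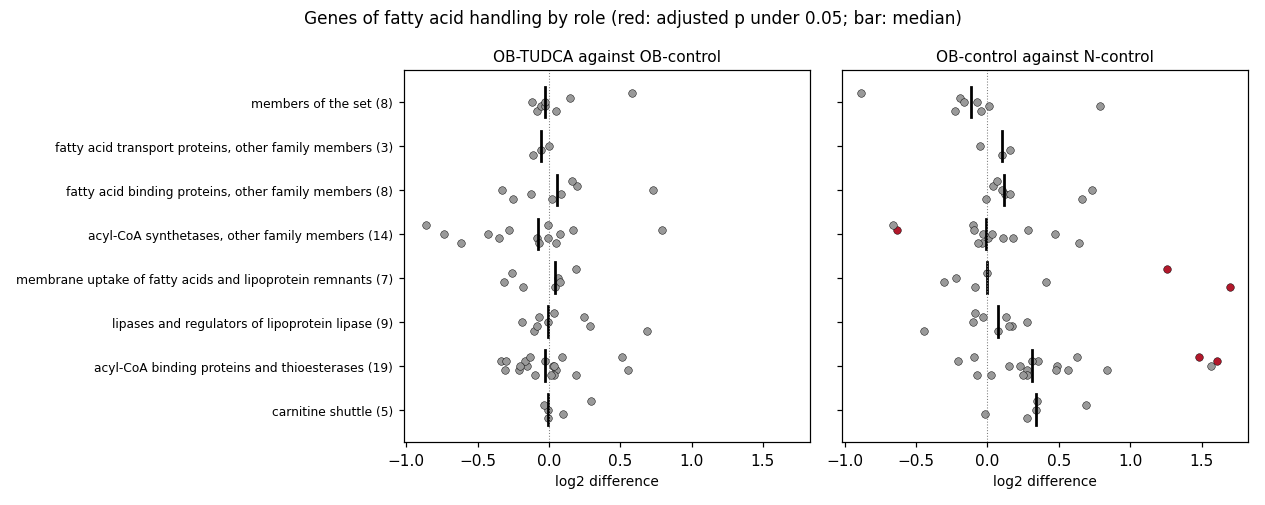
Difference in log2 signal (horizontal axis) of each measured gene (points), for the 8 members and the 7 lists (vertical axis, with the number of genes), in OB-TUDCA against OB-control mice (left) and in OB-control against N-control mice (right); red points passed an adjusted p of 0.05 in limma and bars are medians. In OB-control against N-control mice Cd36 and Vldlr stand at 1.70 and 1.26 and Acot3 and Acot4 at 1.61 and 1.48, and no point is red between the OB groups.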

How the data were processed

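Liver RNA was measured in 9 mice, 3 of each group, on Affymetrix Mouse Gene 1.0 ST arrays. The authors computed the deposited log2 signals with RMA in Affymetrix Expression Console, per the labels and methods (versions not given in the sources used here). RMA brings the probe intensities of all arrays to 1 distribution before it summarizes them, so a shift of all genes would be removed. The summarized values still differed slightly, with array medians of 4.50 to 4.58. Arrays give no read depth, and their number limits the precision.

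The deposited values were not normalized again. Of 35556 probe sets, 21789 were annotated with 1 symbol and used, 1621 had several and 12146 none here. Genes were compared in 1 fit of all 9 arrays with limma 3.58.1 in R 4.3.3 (6 residual and 3.33 prior degrees of freedom), two-sided, with Benjamini-Hochberg adjustment over 19938 genes, in 3 comparisons. The fit was tested on simulated data. Figures used Python 3.11.15 and matplotlib 3.10.9. The members and lists were chosen with earlier results of these data known. Genes named besides members were those of a list past the threshold and the 3 with the profile nearest to the member with the largest difference; the marker genes, Got2, Scarb1, Slc25a20 and list names were added as context after their values were seen. Alternatives covered the low-signal filter, normalization, prior, array weights, groups in the fit, probe sets, an equal-variance t-test, a 1.5-fold limit, acinar signal as a covariate, replicate block and each array left out.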

Additional observations from a re-analysis of the deposited data

How the results depend on the processing

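Under 23 alternatives, 459 differences of the 8 members were computed, of which 0 passed the adjusted threshold and 28 changed sign. Without leaving out an array, the sign turned for Fabp1 and Acsl5 in OB-TUDCA against N-control with a further quantile normalization (0.0807 and 0.0386), for Acsl5 in OB-control against N-control with array medians subtracted (-0.0119) or the acinar mean as a covariate (-0.00867), and for Lpl in OB-TUDCA against OB-control with array weights (0.0638). With 1 array left out, differences ranged, for OB-TUDCA against OB-control, over -0.325 to 0.165 (Slc27a4), -0.0912 to 0.335 (Fabp1), -0.0840 to 0.206 (Acsl4), -0.284 to 0.154 (Acsl5) and -0.236 to 0.0874 (Lpl). For OB-control against N-control they ranged over -0.101 to 0.0295 (Slc27a2), -0.136 to 0.004 (Slc27a5), -0.381 to 0.0452 (Fabp1), -0.176 to 0.262 (Acsl5) and -0.277 to 0.0459 (Lpl), and for OB-TUDCA against N-control over -0.816 to 0.442 (Fabp5) and -0.0668 to 0.0406 (Acsl5).

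At group means at least 1.5-fold apart, 2 members counted in OB-control against N-control (Slc27a4 and Fabp5), where 2.81% of all genes did. In OB-TUDCA against N-control 1 member counted, Slc27a4, where 4.77% of all genes (952) did. This limit takes no account of the spread between arrays. An equal-variance t-test without adjustment took 1 member in OB-TUDCA against N-control. Over all genes the count for OB-TUDCA against OB-control, 60 in limma, was 131 when the dimmest genes were dropped, 97 with quantile normalization, 480 at 1.5-fold, and 0 with only the 2 groups (2060 unadjusted), the acinar covariate (2193 unadjusted) or the equal-variance t-test after adjustment (1418 unadjusted). For OB-control against N-control, 189 in limma, it was 358 with array weights, 65 with only the 2 groups, 72 with the acinar covariate, 561 at 1.5-fold, and 1 with the equal-variance t-test after adjustment (1649 unadjusted). For OB-TUDCA against N-control, 646 in limma, it was 345 with only the 2 groups, 308 with the acinar covariate and 0 with the equal-variance t-test after adjustment (2410 unadjusted). With 1 array left out the counts ranged over 0 to 135, 60 to 266 and 193 to 788 in the same order, and members called were 0 throughout. The count of 0 arose without N-control replicate 2, OB-control replicate 1 or OB-TUDCA replicate 2 or 3. The cause of these changes was not tested.

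The r of deviations between same-numbered arrays was -0.08 to 0.21 over 9 pairs, and not every pair was above 0.1. No label says that a number marks a shared batch, so the arrays were taken to share only a number. With the replicate block 0 members were called, and Slc27a4 had an adjusted p of 0.128 in OB-control and 0.0853 in OB-TUDCA, both against N-control, in limma. The block count over all genes was 60, 189 and 871, against 60, 189 and 646 without it. Of the list genes, Acsm1 and Acot3 in OB-control, and Acsm5, Acbd5 and Acot3 in OB-TUDCA, missed the threshold with the block (adjusted p 0.0523 to 0.0757 in limma).

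Of the 13 calls of list genes against N-control, Cd36, Acot3 and Acot4 in OB-control and Fabp4, Acsm5, Acbd5 and Acot3 in OB-TUDCA missed the threshold with only the 2 groups in the fit (adjusted p 0.0666 to 0.126 in limma). With the acinar covariate Acsm1, Acot3 and Acot4 in OB-control and Fabp4, Acsm5, Acbd5 and Acot3 in OB-TUDCA missed it (0.0520 to 0.132 in limma), and Acbd5 also with quantile normalization (0.0579). All 13 missed it in the equal-variance t-test after adjustment (0.171 to 0.442).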
